A study of Mus musculus with 16 samples.

Results

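The keratins described here are *Krt5*, *Krt14* and *Krt15*, which mark the basal layer of stratified epithelia, and *Krt6a*, *Krt6b*, *Krt16* and *Krt17*, which mark wounded, growing or otherwise stressed epidermis. They were taken by gene symbol from the table of read counts, where 7 of 7 were present among 14474 genes and 19 keratin genes in all. RNA was sequenced from immortalized mouse keratinocytes on collagen-coated dishes in low-calcium medium at 33 °C, in 4 groups of 4 libraries. MKα3− cells (null) lack the α3 subunit of integrin α3β1, a receptor for laminin-332 (LN332), and MKα3+ cells (rescued) are MKα3− cells in which human α3 was put back. Each line was treated for 16 to 24 h either with LN332 at 0.02 mg/mL or with an equal volume of its vehicle, a buffer of PBS and glycine with sodium azide. The labels name 1 line of each kind, so that the effect of α3 cannot be told apart from other differences between the lines, and they do not say that the 4 replicates were separate cultures. The p-values therefore measure only the spread between these libraries.

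Keratins build the intermediate filaments of epithelial cells. A filament forms only from pairs of a type I with a type II protein, and in basal keratinocytes the pair is K5 (type II) with K14 (type I). K15 is a type I keratin of basal and hair follicle bulge cells. Upon injury keratinocytes at the wound edge switch on K6a and K6b (type II) together with K16 and K17 (type I), and these proteins are known to bear on the stiffness, adhesion and migration of the cells that close the wound. The p63 and AP-2 transcription factors are known regulators of the basal keratin genes, and AP-1 factors and NRF2 of the stress keratin genes.

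The type II genes lie together on chromosome 15 and the type I genes on chromosome 11, all on the minus strand (GRCm38, the assembly of mm10). *Krt5* (Entrez 110308) spans chr15:101707069-101712905, *Krt6a* (16687) chr15:101689928-101694305 and *Krt6b* (16688) chr15:101676023-101680293. *Krt14* (16664) spans chr11:100203162-100207510, *Krt15* (16665) chr11:100131759-100135949, *Krt16* (16666) chr11:100246091-100248902 and *Krt17* (16667) chr11:100256215-100261029. Predicted genes on the opposite strand overlap *Krt5*, *Krt6a* and *Krt6b*, and since the sources used here give no strand setting for the counting, reads of either strand cannot be told apart for these genes.

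Because the counts depend on how far the copies can be told apart, the sequences of the closest pair are shown. The coding sequences of *Krt6a* and *Krt6b* were identical at 1622 of 1659 aligned bases (97.77%), with an identical run of 280 bases. The stretch of 90 bases within an exon that differed most, at coding bases 787 to 876, is given 5′ to 3′ in the sense of the mRNA, with the 12 differing bases in capitals, from the GENCODE vM21 transcripts (chr15:101692484-101692573 for *Krt6a* and chr15:101678303-101678392 for *Krt6b*).
Krt6a: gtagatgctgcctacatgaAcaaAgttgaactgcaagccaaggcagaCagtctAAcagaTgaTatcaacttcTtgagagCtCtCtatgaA
Krt6b: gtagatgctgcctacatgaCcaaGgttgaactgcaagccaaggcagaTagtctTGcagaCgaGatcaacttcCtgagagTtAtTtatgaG
A read from this stretch can be placed. By contrast, coding bases 34 to 123 were the same in both genes and hold no difference to place a read by (chr15:101694126-101694215 and chr15:101680101-101680190).
Krt6a and Krt6b: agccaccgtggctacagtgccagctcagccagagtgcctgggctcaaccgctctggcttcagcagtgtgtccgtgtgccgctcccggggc
Of all 100-base windows of its transcript, *Krt6a* shared 33.96% with another mouse transcript and *Krt6b* 30.62%, nearly all with each other and some with *Gm5478*, a neighbouring keratin-like transcribed pseudogene. *Krt16* shared 24.28%, most of it with the *Gm11597* pseudogene. *Krt14* shared 2.88% (with *Krt16*), *Krt5* 2.38% (with *Krt6a*), and *Krt15* and *Krt17* 0%. The read length is not given in the sources used here. With windows of 50 bases *Krt14* shared 14.4%, *Krt5* 8.52%, *Krt17* 4.00% and *Krt15* 0.666%, and *Krt6a*, *Krt6b* and *Krt16* 49.5%, 50.1% and 37.6%. The split of reads between *Krt6a*, *Krt6b* and *Krt16* and their copies is therefore uncertain at either length, and that of *Krt14* and *Krt5* the more so the shorter the reads were.

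Total counts per library ranged from 21735708 to 29338370, and the 7 keratins took between 0.804% and 1.78% of them. *Krt14* ranked between 2 and 11 among all genes of a library. Keratinocyte markers outside the keratins were all present (8 of 8, summed CPM between 3730 and 8893), fibroblast markers were low (5 of 8 present, summed between 11.6 and 40.7 CPM), and endothelial markers summed to between 4.04 and 9.74 CPM (5 of 5 present). By the threshold given below, 0 of the 8 keratinocyte markers were higher and 2 lower in MKα3+ cells in vehicle, and 1 higher and 3 lower in LN332. Of all genes, 10.9% were higher and 7.56% lower in vehicle, and 11.7% higher and 8.92% lower in LN332. Of the melanocyte markers 2 of 7 were present, between 4.70 and 10.6 CPM in sum, and *Pmel* was lower in MKα3+ cells in both media. Immune cell markers (5 of 6 present) summed to between 52.6 and 107 CPM in MKα3− and to between 102 and 390 CPM in MKα3+ libraries; 4 of the 5 rose in vehicle-treated MKα3+ cells, with *Ptprc*, which encodes CD45, at means of 0.555 to 2.22 CPM, and *Cd3e* was not in the table. Their part in the differences between lines below was not tested. *Itga3* had between 4530 and 8830 counts in every library, so that reads over the whole mouse gene do not check which line lacks α3.

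Libraries numbered 1 stood apart in the keratins. Replicate 1 had the lowest *Krt5*, *Krt14* and *Krt6b* of its group in 4 of 4 groups and the lowest *Krt6a* and *Krt16* in 3 of 4, whereas *Krt17* was highest in replicate 1 in 3 of 4 groups. Counts on the ribosomal RNA gene *Rn45s* made up 1.42% of replicate 1 of LN332-treated MKα3− cells and 1.06% of replicate 1 of LN332-treated MKα3+ cells, against 0.502% to 0.868% in the other libraries. Calls of the 7 keratins that turn on these libraries are given with and without them.

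*Krt5* was lower in MKα3+ than in MKα3− cells. Levels are given as CPM, read counts scaled to a common library size with TMM factors, for replicates 1 to 4 in that order. In vehicle, the libraries of MKα3− cells held 3285, 4785, 5702 and 4571 CPM, and those of MKα3+ cells 2466, 3141, 3272 and 3646 CPM. In LN332, MKα3− cells held 2847, 5138, 6986 and 5041 CPM and MKα3+ cells 2139, 3200, 2616 and 3100 CPM. The replicate numbers compared one with another, *Krt5* was lower in MKα3+ cells in 4 of 4 in each medium, although the ranges of the groups overlapped through replicate 1 of MKα3− cells.

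Its partner *Krt14* did not follow. MKα3− cells held 2905, 4276, 4715 and 5027 CPM of *Krt14* in vehicle, and MKα3+ cells 4528, 5685, 6357 and 6637 CPM. In LN332 the values were 3771, 6417, 7222 and 6934 CPM in MKα3− cells and 5896, 8296, 6999 and 8179 CPM in MKα3+ cells. In every group replicate 1 was the lowest, and the lines overlapped in both media.

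*Krt15* was the least abundant of the 7. In MKα3− cells it stood at 8.95, 1.90, 10.4 and 3.11 CPM in vehicle and at 5.04, 1.70, 5.67 and 1.52 CPM in LN332. In MKα3+ cells it stood at 1.20, 0.762, 0.705 and 0.504 CPM in vehicle and at 1.33, 0.690, 0.545 and 0.674 CPM in LN332. Every MKα3+ library lay below every MKα3− library, and the MKα3+ values rested on 14 to 33 counts each. Within MKα3− cells replicates 1 and 3 were high and replicates 2 and 4 low in both media.

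Among the stress keratins, *Krt6a*, a keratin of the follicle companion layer and of wounds, stood at 776, 993, 1999 and 1297 CPM in vehicle-treated MKα3− cells and at 678, 566, 778 and 792 CPM in vehicle-treated MKα3+ cells. With LN332 it stood at 874, 1374, 3181 and 1982 CPM in MKα3− cells and at 762, 914, 919 and 1010 CPM in MKα3+ cells. Its spread was far wider in MKα3− cells, where replicate 3 was highest in both media. The nearly identical *Krt6b* ran in parallel at means of 126 ± 43.8 and 180 ± 104 CPM (SD, n = 4) in MKα3− cells in vehicle and LN332, and 75.1 ± 14.9 and 90.2 ± 12.6 CPM (SD, n = 4) in MKα3+ cells. The *Krt6a* to *Krt6b* ratio of counts was between 8.56 and 11.3 in every library, and its group means, 9.48 to 10.5, did not differ beyond the spread in any of the 4 comparisons (exact permutation p between 0.229 and 0.629, and between 0.508 and 0.786 adjusted over 20 tests of ratios).

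*Krt17*, a type I keratin of injured epidermis and of hair follicles, was higher in MKα3+ cells. In vehicle, MKα3− libraries held 821, 675, 876 and 552 CPM and MKα3+ libraries 1494, 1291, 1147 and 1068 CPM. In LN332, MKα3− libraries held 990, 882, 964 and 886 CPM and MKα3+ libraries 1794, 1678, 1390 and 1282 CPM. The lowest MKα3+ library was above the highest MKα3− library in each medium. *Krt16*, its fellow type I stress keratin, showed no such separation, at 39.2, 45.6, 56.6 and 52.1 CPM in vehicle and 53.5, 60.1, 110 and 93.0 CPM in LN332 in MKα3− cells. In MKα3+ cells *Krt16* stood at 59.9, 49.4, 59.1 and 66.8 CPM in vehicle and at 73.7, 86.5, 77.8 and 78.6 CPM in LN332.

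**Figure D1:**
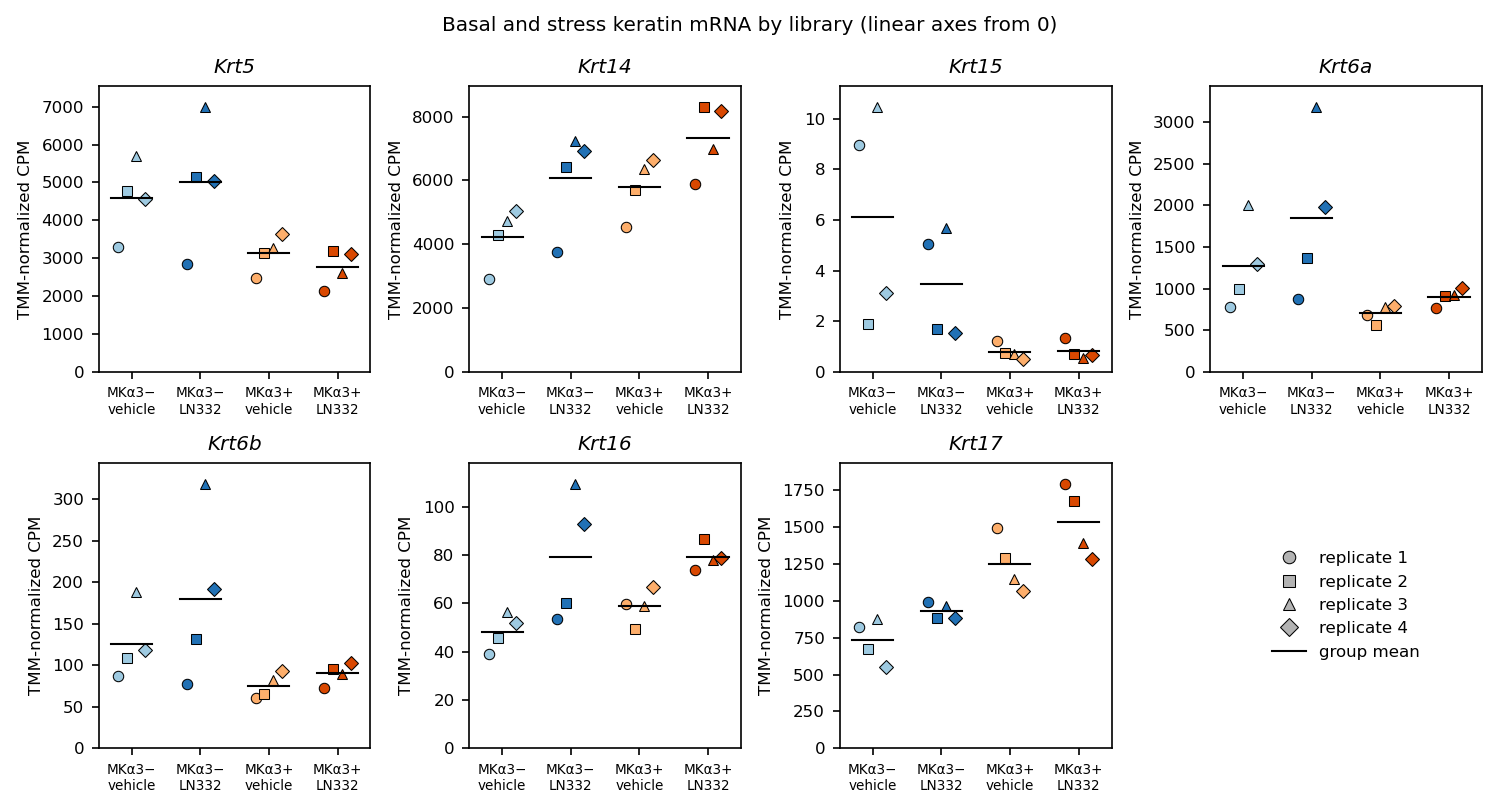
TMM-normalized CPM (linear axes from 0) of the 7 keratins in each of the 16 libraries, by line and treatment; marker shapes give the replicate number and black lines the means of 4 libraries. *Krt15* is lower and *Krt17* higher in every MKα3+ library than in every MKα3− library of the same medium, and replicate 1 has the lowest *Krt5* and *Krt14* of each group.

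Divided by exonic length, so that genes can be set side by side, the order of levels also differed between the lines. In vehicle-treated MKα3− cells *Krt14* (2407 ± 532 CPM per kb, SD, n = 4) and *Krt5* (2087 ± 453) were not separated by their spread, and neither were *Krt6a* (524 ± 221) and *Krt17* (471 ± 94.2). Then followed *Krt6b* (56.2 ± 19.6), *Krt16* (30.9 ± 4.87) and *Krt15* (3.45 ± 2.39 CPM per kb), each below the lowest library of the gene before it. In vehicle-treated MKα3+ cells *Krt14* (3300 ± 534 CPM per kb) stood above *Krt5* (1425 ± 224) and *Krt17* (806 ± 121) above *Krt6a* (291 ± 43.4), without overlap, while *Krt16* and *Krt6b* overlapped. LN332-treated MKα3− cells kept the order of vehicle-treated MKα3− cells, with overlap between *Krt14*, *Krt5*, *Krt6a* and *Krt17* in turn and between *Krt6b* and *Krt16*. With LN332, MKα3+ cells had *Krt14* at 4177 ± 642 CPM per kb, and *Krt5* (1258 ± 222) and *Krt17* (990 ± 155) overlapped. As a share of the 7 keratins per length, *Krt5* made up 37.4 ± 1.82% in vehicle-treated MKα3− and 18.2 ± 1.13% in LN332-treated MKα3+ cells, and *Krt14* 43.1 ± 3.96% and 60.4 ± 2.44% (SD, n = 4). Whether a lower level stems from fewer cells with the keratin or less of its RNA in each cell cannot be told apart in these bulk samples.

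The comparison of MKα3+ with MKα3− cells asks which transcripts go with α3β1. In vehicle 2 of the 7 keratins passed the threshold (adjusted p under 0.05 in limma-voom and an absolute log2 fold change over 0.5), against 18.5% of all genes tested. *Krt17* rose by 0.78 on the log2 scale (SE 0.15, adjusted p = 6.89e-04) and *Krt15* fell by 2.64 (SE 0.72, adjusted p = 0.0107). These 2 were also those of the 7 whose groups did not overlap in CPM, as held for 32.9% of all genes. The median log2 fold change of the 7 was -0.54, against 0.01 over all genes. *Krt6a* (-0.77, SE 0.30, adjusted p = 0.0623), *Krt6b* (-0.70, adjusted p = 0.103), *Krt5* (-0.54, adjusted p = 0.0905), *Krt14* (0.47, adjusted p = 0.106) and *Krt16* (0.29, adjusted p = 0.263) did not pass. Without the 4 libraries numbered 1, 5 keratins passed, with *Krt5* at -0.58 (adjusted p = 0.00798), *Krt6a* at -0.97 (adjusted p = 0.0145) and *Krt6b* at -0.76 (adjusted p = 0.0411), while *Krt14* stood at 0.41, under the minimum fold change (adjusted p = 0.0152). Left out alone, replicate 1 of vehicle-treated MKα3− cells brought in *Krt5* (-0.69, adjusted p = 0.0450) and *Krt6a* (-0.98, adjusted p = 0.0282). Replicate 1 of LN332-treated MKα3− cells, which enters only the shared estimate of the spread, brought in *Krt5*, *Krt6a* and *Krt6b* (adjusted p 0.0305, 0.0251 and 0.0357), and replicate 3 of that group *Krt6a* and *Krt6b* (adjusted p 0.0283 and 0.0429).

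In LN332 3 of the 7 passed between the lines, against 20.6% of all genes. *Krt17* rose again (log2 fold change 0.71, SE 0.15, adjusted p = 0.00155), while *Krt5* (-0.80, SE 0.23, adjusted p = 0.0117) and *Krt6a* (-0.89, SE 0.30, adjusted p = 0.0337) fell. *Krt15* stood at -1.96 (SE 0.77, adjusted p = 0.0592) and *Krt6b* at -0.82 (adjusted p = 0.0535), just short of the threshold, *Krt14* at 0.30 (adjusted p = 0.308) and *Krt16* at 0.06 (adjusted p = 0.817). *Krt15* and *Krt17* were again the 2 of 7 without overlap, against 26.5% of all genes, and the median of the 7 was -0.80 against 0.01 over all genes. The call of *Krt6a* did not hold without replicate 3 (-0.59, adjusted p = 0.111) or replicate 4 (-0.80, adjusted p = 0.0828) of LN332-treated MKα3− cells. It also did not hold without replicate 1, 2 or 3 of LN332-treated MKα3+ cells (adjusted p 0.0673, 0.0584 and 0.0575). *Krt6b* passed without replicate 1 of LN332-treated MKα3− cells (-1.16, adjusted p = 0.00332) and without replicate 1 or 3 of vehicle-treated MKα3− cells (adjusted p 0.0483 and 0.0443), and so also without all 4 libraries numbered 1 (-1.06, adjusted p = 0.00645). *Krt15* passed without replicate 2 (-2.27, adjusted p = 0.0392) or 4 (-2.22, adjusted p = 0.0434) of LN332-treated MKα3− cells and without replicate 1, 2 or 3 of vehicle-treated MKα3− cells (adjusted p 0.0389, 0.0339 and 0.0330). Under edgeR's quasi-likelihood test *Krt15* (-2.11, adjusted p = 0.00803) and *Krt6b* (adjusted p = 0.0229) passed as well, which makes 5 of 7.

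The treatment with LN332 asks which transcripts respond to the ligand. In MKα3+ cells 0 of the 7 keratins passed in limma-voom, against 0.187% of all genes. At an unadjusted p under 0.05 there was 1, *Krt16* (log2 fold change 0.43, SE 0.18, adjusted p = 0.438), and edgeR and DESeq2 called 0. With the replicate number as a block, since same-numbered libraries of these 2 groups deviated together, 0 of 7 passed as well (*Krt16* 0.43, adjusted p = 0.126), while the count over all genes went from 27 to 218. *Krt16* was the 1 of 7 whose groups did not overlap, as held for 9.66% of all genes. In MKα3− cells 0 of the 7 passed in limma-voom, against 0.304% of all genes; 3 had an unadjusted p under 0.05, edgeR called 0 and DESeq2 1, *Krt16* (0.71, adjusted p = 0.0144). These 3 were *Krt16* (0.66, SE 0.18, adjusted p = 0.135), *Krt14* (0.51, SE 0.21, adjusted p = 0.294) and *Krt17* (0.37, SE 0.15, adjusted p = 0.276), and *Krt17* was the 1 of 7 without overlap, against 4.95% of all genes. *Krt16* passed without replicate 1 of LN332-treated MKα3− cells (0.82, adjusted p = 0.0298), and *Krt14* passed without the 4 libraries numbered 1 (0.55, adjusted p = 0.0394).

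Averaged over both lines, *Krt16* was the 1 of 7 keratins that rose with LN332 (log2 fold change 0.55, SE 0.13, adjusted p = 0.0247), against 1.35% of all genes. It was higher in LN332 in 4 of 4 replicate numbers in MKα3− and in 4 of 4 in MKα3+ cells, as were *Krt14* (0.43, adjusted p = 0.121), *Krt17* (0.33, adjusted p = 0.0809) and *Krt6a* (0.42, adjusted p = 0.283). The call was close to both limits. It was lost, by falling under the minimum fold change, without replicate 1 of vehicle-treated MKα3− cells (0.50, adjusted p = 0.0452) and without replicate 3 (0.45, adjusted p = 0.0252) or 4 (0.49, adjusted p = 0.0435) of LN332-treated MKα3− cells. It was lost by its adjusted p without replicate 2 of vehicle-treated (0.51, adjusted p = 0.0581) or LN332-treated MKα3+ cells (0.52, adjusted p = 0.0526). *Krt14* joined it without replicate 1 of LN332-treated MKα3− cells (0.53, adjusted p = 0.0208). The LN332 responses of the lines were not shown to differ for any keratin: the interaction of line and LN332 in limma-voom gave 0 of 7, against 0% of all genes, with 0 of the 7 and 164 of 14474 genes at an unadjusted p under 0.05 and 0 calls by edgeR and by DESeq2. The 95% interval of that difference ran from -0.77 to 0.32 for *Krt16* and from -0.94 to 0.41 for *Krt5* on the log2 scale, so that differences of such size cannot be told at this depth and spread.

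**Figure D2:**
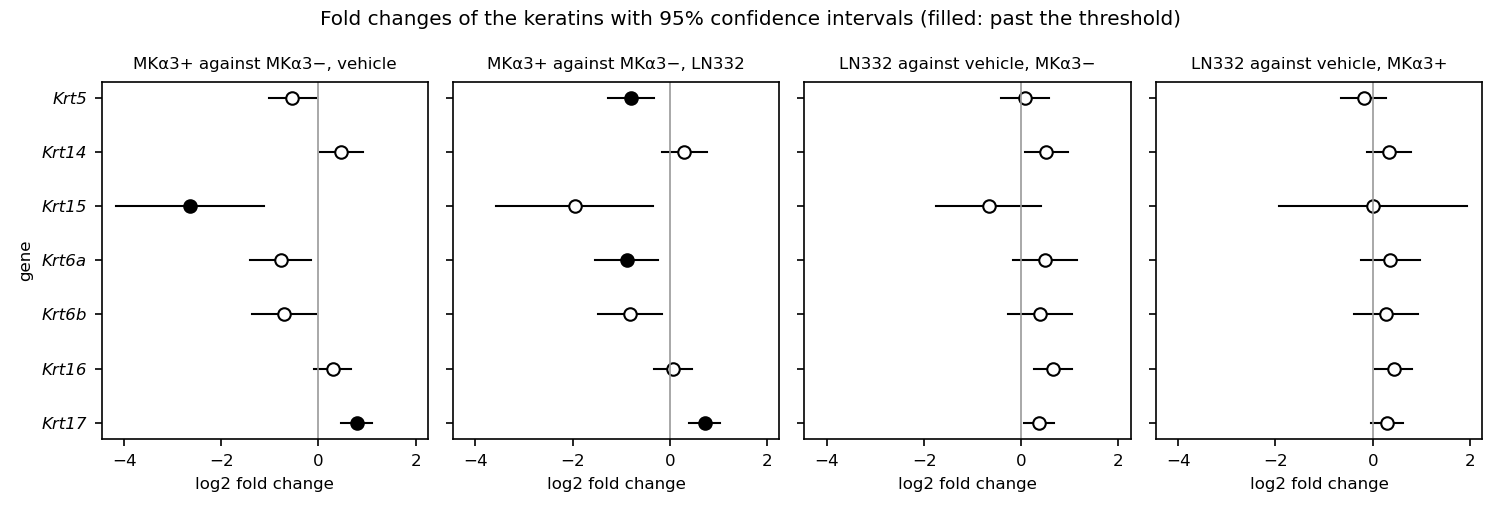
Log2 fold changes of the 7 keratins (points) with 95% confidence intervals (lines) from limma-voom, in 4 panels, for MKα3+ against MKα3− cells in vehicle and in LN332 and for LN332 against vehicle in each line; filled points passed the threshold. *Krt5*, *Krt6a*, *Krt6b* and *Krt15* lie left of 0 and *Krt14* and *Krt17* right of 0 in both comparisons of the lines, where *Krt15* and *Krt17* passed in vehicle and *Krt5*, *Krt6a* and *Krt17* in LN332.

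Since filaments need both types, the sum of the type II transcripts (*Krt5*, *Krt6a*, *Krt6b*) was divided by the sum of the type I transcripts (*Krt14*, *Krt15*, *Krt16*, *Krt17*) in each library, per exonic length. A ratio within a library does not depend on the scaling between libraries. In vehicle it was 0.839, 0.910, 1.07 and 0.821 in MKα3− cells and 0.400, 0.413, 0.421 and 0.450 in MKα3+ cells. In LN332 it was 0.60, 0.697, 0.966 and 0.699 in MKα3− cells and 0.290, 0.321, 0.327 and 0.339 in MKα3+ cells. The lines did not overlap in either medium, and replicate 3 of MKα3− cells was the highest in both. The difference of MKα3+ from MKα3− cells was -1.10 on the log2 scale in vehicle (SE 0.09, exact permutation p = 0.0286) and -1.19 in LN332 (SE 0.15, exact permutation p = 0.0286). With LN332 the ratio was lower without overlap in MKα3+ cells (-0.40, SE 0.06, exact permutation p = 0.0286), and in MKα3− cells it was -0.31 with overlap (SE 0.17, exact permutation p = 0.114). Without replicate 3 of LN332-treated MKα3− cells the groups no longer overlapped there (-0.45, exact permutation p = 0.0286). The p of 0.0286 is the smallest that 4 against 4 libraries allow, and adjusted over the 8 planned tests of ratios it is 0.0762. With all 19 keratin genes of the table in the sums, the difference between the lines was -0.72 in vehicle and -0.67 in LN332 (exact permutation p = 0.0286 each). The LN332 differences above are those of the 7 keratins alone, and their size need not hold with all 19 in the sums. Outside the 7, the type II genes *Krt8*, *Krt7* and *Krt80* stood at log2 fold changes of 0.45, 0.27 and 0.55 with LN332 in MKα3+ cells. The type I genes *Krt18* and *Krt19* stood at 0.30 and -0.14 there, and none of these passed. Per kb, the means of MKα3+ cells in vehicle and LN332 were 660 and 899 CPM for *Krt8* and 309 and 373 CPM for *Krt7*. They were 21.9 and 32.1 CPM for *Krt80*, 261 and 325 CPM for *Krt18*, and 193 and 178 CPM for *Krt19*.

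The basal pair alone gave a difference of like size. The *Krt5* to *Krt14* ratio of counts, chosen after the values were seen, was 1.13, 1.12, 1.21 and 0.909 in MKα3− cells in vehicle and 0.755, 0.801, 0.967 and 0.727 in LN332. In MKα3+ cells it was 0.545, 0.553, 0.515 and 0.549 in vehicle and 0.363, 0.386, 0.374 and 0.379 in LN332. The 8 MKα3+ libraries thus held close to their group means of 0.540 ± 0.0174 and 0.375 ± 0.00965 (SD, n = 4), although *Krt5* itself ranged from 2139 to 3646 CPM among them. Between the lines the log2 difference was -1.01 (SE 0.09) in vehicle and -1.11 (SE 0.09) in LN332, and between LN332 and vehicle -0.53 (SE 0.03) in MKα3+ cells, each without overlap (exact permutation p = 0.0286 each). In MKα3− cells it was -0.43 (SE 0.13, exact permutation p = 0.0571), with replicate 3 in LN332 above replicate 4 in vehicle. Over the 20 tests of ratios run in all, the p of 0.0286 adjusts to 0.0952.

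By contrast, the ratio of the stress to the basal keratins, both summed as counts, did not differ beyond the spread in any comparison. It was 0.247 ± 0.0488 in vehicle and 0.274 ± 0.0483 in LN332 in MKα3− cells, and 0.241 ± 0.0592 and 0.264 ± 0.0509 in MKα3+ cells (SD, n = 4; exact permutation p between 0.4 and 0.914). Beneath this ratio the stress keratins did not move as 1 group, since in LN332 *Krt6a* fell and *Krt17* rose in MKα3+ cells. The log2 difference between lines was -0.05 with an SE of 0.22 in vehicle and -0.06 with an SE of 0.19 in LN332.

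**Figure D3:**
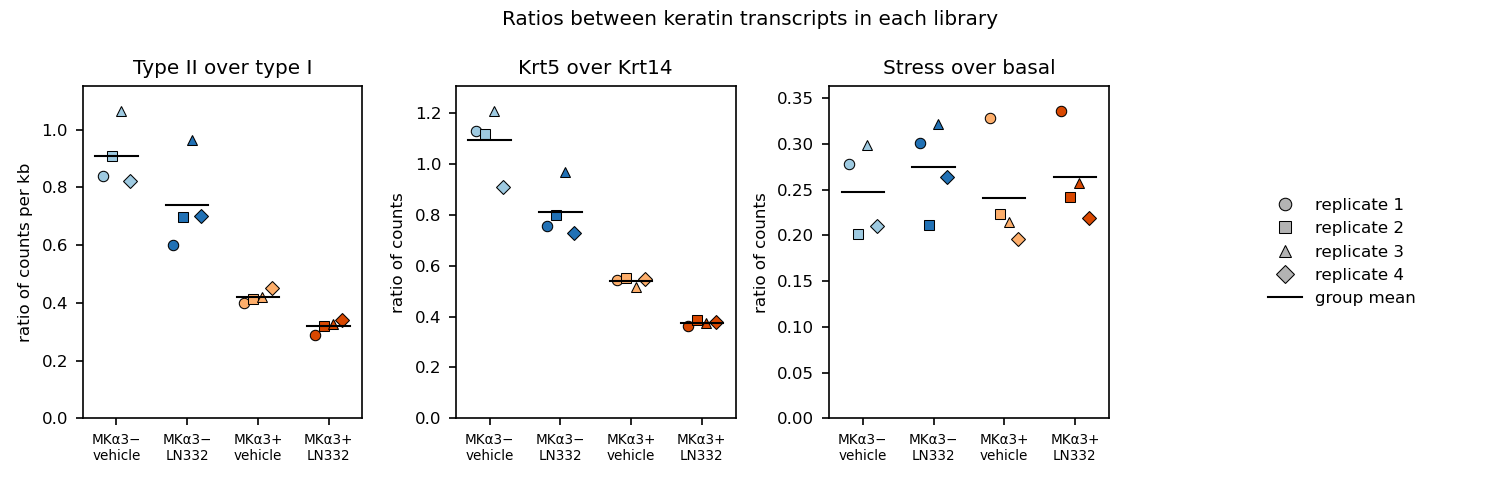
Ratios within each of the 16 libraries (linear axes from 0), by line and treatment: type II over type I keratins per kb, *Krt5* over *Krt14* and stress over basal keratins as counts; shapes give the replicate number and black lines the group means. The lines separate in the first and second panels, where MKα3+ cells lie between 0.290 and 0.450 and between 0.363 and 0.553, and overlap in the third.

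Around the group means, most of the keratins varied together. Over the 16 libraries, with each group's mean taken off the log2 CPM, *Krt5* and *Krt14* deviated together (Pearson r = 0.93), as did *Krt6a* with *Krt6b* (0.97) and with *Krt16* (0.93), and *Krt5* with *Krt6b* (0.91). *Krt17* went with *Krt15* (0.73) and against *Krt14* (-0.53). These values are descriptions, since the points share libraries, and since *Krt6a* and *Krt6b* share reads. With the other stress keratins *Krt17* correlated at -0.11 to -0.15. Some of these values rested on the libraries numbered 1. Over the 12 other libraries *Krt5* and *Krt14* correlated at 0.56, *Krt17* with *Krt14* at -0.16, and *Krt17* with the other stress keratins at 0.15 to 0.35. *Krt5* and *Krt15* went from -0.27 to 0.75. The values of *Krt6a* with *Krt6b* (0.98) and *Krt16* (0.87) and of *Krt15* with *Krt17* (0.62) changed less.

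**Figure D4:**
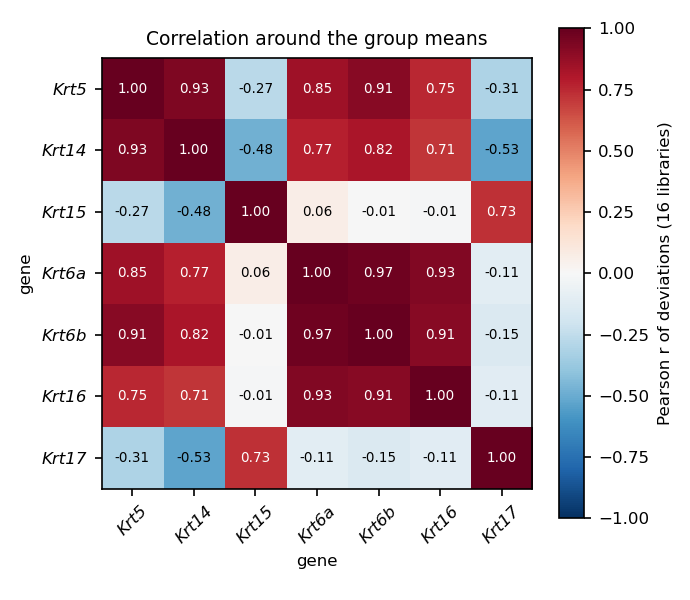
Pearson correlations of log2 CPM between the 7 keratins over 16 libraries after each group's mean was taken off; red is positive and blue negative, on a scale from -1 to 1. *Krt5*, *Krt14*, *Krt6a*, *Krt6b* and *Krt16* correlate with each other at 0.71 or more, and *Krt17* with *Krt15* at 0.73. Without the libraries numbered 1, *Krt14* correlates at 0.56 with *Krt5* and with *Krt6b* and at 0.59 with *Krt6a*, and *Krt5* with *Krt16* at 0.66.

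Outside the keratin family, the genes most like each member over the 16 libraries, of 11788 compared, were found from the correlation of log2 CPM, with the differences between groups included. For *Krt6a* and *Krt6b* the first was *Gm5478* (r = 0.95 and 0.97), which shares sequence with both, followed by *Chsy1* and *Alas1*. For *Krt5* they were *Taf4b* (0.95), *Serpinb10* (0.95) and *Tef* (0.95), and for its partner *Krt14* instead *Ttc39b* (0.96), *Lonrf1* (0.95) and *Col12a1* (0.94). *Krt15* was most like *Grn* (0.97), *Tmprss4* (0.96) and *Dhx58* (0.96), *Krt16* like *Wasl* (0.91), *Map7d1* (0.89) and *Smurf1* (0.88), and *Krt17* like *Rassf1* (0.94), *Pitpnc1* (0.93) and *Eda2r* (0.92), a receptor of the TNF receptor family. No gene outside the family was shared by the lists of *Krt5* and *Krt14*.

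Of the other 12 keratin genes, 5 were higher and 2 lower in MKα3+ cells in vehicle, and 6 higher and 2 lower in LN332. Of all genes, 10.9% were higher and 7.56% lower in vehicle, and 11.7% higher and 8.92% lower in LN332. Those of simple, single-layered epithelia led, as 4 of 5 rose in each medium. *Krt19* (type I) rose from 6.33 ± 1.76 to 358 ± 38.6 CPM (SD, n = 4) in vehicle, by 5.87 on the log2 scale (SE 0.23, adjusted p = 3.12e-11). The type II genes *Krt8* (1.23, adjusted p = 1.90e-07) and *Krt7* (0.81, adjusted p = 1.84e-05) also rose, so that type II genes moved in both directions between the lines, whereas *Krt18*, the type I partner of *Krt8*, stood at 0.15 (adjusted p = 0.641), and at 0.35 (adjusted p = 0.194) without replicate 1 of vehicle-treated MKα3− cells, its highest library in that group. The fourth that rose, *Krt20*, was low, with means of 0.225 CPM in MKα3− and of 1.76 CPM in MKα3+ cells in vehicle. Of the suprabasal or mucosal keratins 4 of 9 were in the table, of which *Krt80* rose in vehicle (1.76, adjusted p = 5.42e-07) and *Krt78* fell (-2.71, adjusted p = 0.00434). In LN332 *Krt80* rose and *Krt78* and *Krt10* fell, and with LN332 in MKα3− cells *Krt8* rose (0.55, adjusted p = 0.0326).

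Other genes on the list encode proteins that bind keratin filaments, mostly at desmosomes and hemidesmosomes. Of these 12 genes 0 were higher and 3 lower in MKα3+ cells in vehicle, and 1 higher and 2 lower in LN332, a total of 3 in each medium, against 18.5% and 20.6% of all genes. The desmosomal plaque gene *Pkp2* fell from 18.4 ± 3.56 to 1.89 ± 0.605 CPM (SD, n = 4; log2 fold change -3.30, SE 0.31, adjusted p = 3.73e-07) and *Perp*, a desmosomal membrane protein, by 0.70 on the log2 scale (adjusted p = 4.13e-04). Both also fell in LN332 (-3.32 and -0.78), where *Eppk1*, which encodes the keratin-binding epiplakin, rose (0.66, adjusted p = 0.00327), where the MKα3− libraries held 76.2 to 78.4 CPM apart from replicate 4, with 52.5 CPM. With LN332 0 of 12 passed in either line in limma-voom, edgeR or DESeq2, and 3 of 12 had an unadjusted p under 0.05 in each line.

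Among 17 regulators of keratin genes in the table (18 listed), 1 was higher and 2 lower in MKα3+ cells in vehicle, and 0 higher and 4 lower in LN332, a total of 3 and of 4, against 18.5% and 20.6% of all genes. *Tfap2c*, which encodes AP-2γ, fell in vehicle from 2.91 ± 1.23 to 0.218 ± 0.0915 CPM (SD, n = 4; log2 fold change -3.64, SE 0.56, adjusted p = 1.03e-04), and it fell in LN332 as well (-3.39, adjusted p = 2.42e-04). *Grhl3*, a factor of barrier formation and wound closure, fell in vehicle (-0.64, adjusted p = 0.0252) and in LN332 (-0.97, adjusted p = 9.15e-04). The AP-1 gene *Fos* rose in vehicle (1.30, adjusted p = 0.0236) and did not pass in LN332 (0.60). In vehicle the MKα3− libraries held 23.7 to 31.3 CPM of *Fos* apart from replicate 1, with 98.4 CPM. Without that library *Fos* rose by 1.76 (adjusted p = 0.00167). In vehicle-treated MKα3+ cells replicate 1 was also the highest in *Fos* (153 CPM, the others 69.5 to 95.6 CPM). *Grhl3* was lowest in replicate 1 of MKα3+ cells in both media, and its call in vehicle was lost without that library (-0.45, adjusted p = 0.0914). In LN332 *Trp63*, the gene of p63, fell (-0.91, SE 0.26, adjusted p = 0.0128), as did *Cebpb*, and neither passed in vehicle. The LN332-treated MKα3+ libraries held 58.9 to 62.1 CPM of *Trp63* apart from replicate 1, with 30.4 CPM. The call of *Trp63* is not given here without that library. In vehicle, replicate 1 of MKα3+ cells was also the lowest in *Trp63* (51.8 CPM, the others 82.4 to 87.0 CPM). With LN332 0 of 17 passed in limma-voom and edgeR in either line, with 1 at an unadjusted p under 0.05 in MKα3+ and 6 in MKα3− cells and 1 and 2 calls by DESeq2.

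Of 16 wound-activated epidermal genes in the table (20 listed), 3 rose in MKα3+ cells in vehicle and 2 in LN332, and 0 fell, against 10.9% and 11.7% of all genes that rose and 7.56% and 8.92% that fell. The cytokine gene *Il1a* rose in both media (0.64, adjusted p = 0.00791, and 0.65, adjusted p = 0.00740). *Hbegf*, the gene of an EGF receptor ligand, also rose in both media, by 0.57 in vehicle and by 0.66 in LN332 (adjusted p = 0.0195). In LN332 replicate 1 of MKα3− cells held 42.0 CPM of *Hbegf* and the others 23.5 to 26.1 CPM, and without it the change was 0.85. *Il1b* rose in vehicle (1.10, adjusted p = 0.0320) from 2.17 ± 0.807 to 4.79 ± 2.09 CPM (SD, n = 4). In those 4 MKα3+ libraries *Il1b* stood at 3.02, 3.05, 5.91 and 7.16 CPM and the myeloid marker *Lyz2* at 45.3, 53.2, 229 and 237 CPM, so that both were higher in replicates 3 and 4, and the part of such cells in the *Il1b* value was not tested. With LN332 0 of 16 passed in either line in limma-voom, edgeR or DESeq2, with 3 in MKα3+ and 2 in MKα3− cells at an unadjusted p under 0.05.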

How the data were processed

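RNA from 16 samples of MKα3− and MKα3+ cells was sequenced after poly(A) selection (NEBNext Ultra II). Per the labels, base calls were converted with bcl2fastq 2.20. Reads were aligned by the authors to mm10 with Rsubread and assigned to Entrez genes by featureCounts, whose inbuilt annotation was used. The deposited values are read counts for 14474 genes, not normalized. The strand setting is not given in the sources used here. The deposited table had already been filtered, and the filter of CPM over 0.5 in at least 3 libraries removed 0 genes.

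From these counts, TMM factors came from edgeR 4.0.16, and voom weights, contrasts and moderated statistics from limma 3.58.1 (R 4.3.3), in a fit of all 16 libraries with a coefficient for each group. Adjusted p-values are Benjamini-Hochberg values of limma-voom over all genes unless edgeR or DESeq2 is named. Ratios within libraries were tested with two-sided exact permutation tests over 70 splits. The 7 keratins and all gene lists were chosen with earlier results of these data known. Of the other keratin genes, those with a mean of at least 10 CPM were named, and of the lists of filament-binding proteins, regulators and wound-activated genes the 2 with the largest called change in each direction, *Cebpb*, *Trp63*, *Krt78*, *Krt10* and *Krt20* having been added after their values were seen, and for each keratin the 3 most correlated genes whose log2 CPM averaged 1 or more. No values of the paper's own comparisons were used.

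Total counts per library were between 21735708 and 29338370. Replicates differed by more than sampling noise (chi-square per degree of freedom at least 5.46). The replicate numbers come from the labels. Same-numbered libraries correlated in their deviations from the group means at 0.202 to 0.620 in all 4 pairs between vehicle and LN332 in MKα3+ cells. There alone they were taken as paired, and the replicate block was given beside the unpaired result. For the other comparisons the block was given as an alternative. The main fit and the permutation tests of ratios paired no libraries. On simulated counts with 200 genes changed by a log2 fold change of 1, the procedure recovered 83% with 3 false calls (lines in vehicle) and 84% with 15 (lines in LN332), and made 0 calls without a change.

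As alternatives, the tests of DESeq2 1.42.0 and of edgeR (quasi-likelihood) were run. In limma-voom itself, size factors of DESeq2, plain library size, no filter, a minimum of 10 counts in each library (12795 genes), sample quality weights, a replicate block, a fit of the compared groups only and other minimum fold changes were tried, besides a median over genes within 10 Mb taken off, other sums for the ratios, and each library left out. Leaving out the 4 libraries numbered 1 and summing all keratin genes were added after the data were seen. Transcript sequences and exon positions came from GENCODE vM21 (GRCm38).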

Additional observations from a re-analysis of the deposited data

Results flagged for a closer look

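In 96 groups of 4 libraries, a lowest or highest library far from the other 3 (Dixon's ratio over its 95% critical value) was sought. These covered the 7 keratins and their type II to type I, *Krt5* to *Krt14* and stress to basal ratios. The other keratins with a mean of at least 10 CPM and the list genes named for their largest called change were also covered. *Cebpb*, *Trp63*, *Krt78*, *Krt10*, *Krt20* and the correlated genes were not. Such a library was found 10 times, against 4.8 that chance gives, and 0 times for the 7 keratins and these ratios. In vehicle-treated MKα3− cells, replicate 1 was the highest in *Krt18* (516 CPM, the others 278 to 303 CPM) and *Fos* (98.4 CPM, the others 23.7 to 31.3 CPM), and replicate 3 was the lowest in *Pkp2* (13.1 CPM, the others 19.7 to 20.4 CPM) and the highest in *Tfap2c* (4.75 CPM, the others 2.18 to 2.37 CPM). In LN332-treated MKα3− cells, replicate 4 was the lowest in *Eppk1* (52.5 CPM, the others 76.2 to 78.4 CPM) and replicate 1 the highest in *Hbegf* (42.0 CPM, the others 23.5 to 26.1 CPM). In MKα3+ cells, replicate 1 was the lowest in *Grhl3* in vehicle (12.3 CPM, the others 20.1 to 21.2 CPM) and in LN332 (18.2 CPM, the others 26.3 to 27.6 CPM) and in *Perp* in vehicle (364 CPM, the others 401 to 408 CPM), and replicate 4 was the highest in *Il1b* in LN332 (7.08 CPM, the others 2.85 to 3.46 CPM). Of the 10 values, 6 came from libraries numbered 1.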

How the results depend on the processing

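The differences in the type II to type I and the *Krt5* to *Krt14* ratio kept their direction under every alternative tried for them. For the former, LN332 against vehicle in MKα3− cells ranged from -0.45 to -0.22 with a library left out and reached p = 0.0286 (exact permutation test) without replicate 3 of the LN332-treated cells. Without all 4 libraries numbered 1, or with the replicate block, that test cannot pass, and only the size was compared. The count of keratins passing between the lines in vehicle was 2, and 3 with DESeq2. It was 5 with sample quality weights or with only the groups compared. At a minimum log2 fold change of 1 it was 1, and with libraries left out 2 to 5. In LN332 it was 3, and 5 with edgeR, DESeq2 or sample quality weights, 0 at a minimum log2 fold change of 1, and 2 to 5 with libraries left out. For LN332 in MKα3− cells it was 0, and 1 with DESeq2 and 0 to 1 with libraries left out. Averaged over the lines it was 1, and 0 with library size alone, sample quality weights or a minimum log2 fold change of 1, and 0 to 2 with libraries left out. For the lines in vehicle and in LN332 and for LN332 in MKα3− cells the libraries were not taken as paired, since 1 or more pairs correlated below 0.1. Yet 7, 6 and 5 of 8 libraries correlated best with their own number. Over all groups, same-numbered libraries correlated at a mean of 0.255 and others at -0.080. A pairing is thus hinted at by the data, and the labels give only the numbers. With a replicate block 5, 5 and 2 keratins passed in these comparisons, so that their counts depend on this choice. The block changed no other count.

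Values that turned direction were all of keratins or ratios that did not pass. *Krt16* between the lines in LN332 was -0.00034 with DESeq2 and -0.10 to 0.24 with libraries left out. *Krt15* with LN332 in MKα3+ cells turned to -0.070 under library size alone, to -0.0060 with the replicate block, and ranged from -0.25 to 0.23 with libraries left out. *Krt5* ranged from -0.10 to 0.32 with LN332 in MKα3− cells and from -0.14 to 0.067 averaged over the lines. In the interaction, *Krt6a* was 0.068 with sample quality weights, and with libraries left out it ranged from -0.42 to 0.18, *Krt6b* from -0.46 to 0.22, *Krt14* from -0.38 to 0.00014 and *Krt17* from -0.17 to 0.057. The stress to basal ratio between the lines was 0.057 in vehicle and 0.047 in LN332 when counts were divided by length, and ranged from -0.21 to 0.052 and from -0.18 to 0.023 with libraries left out. Depth limits *Krt15* in MKα3+ cells, at 14 to 33 counts per library.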
